A study of Mus musculus with 6 samples.

Results

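Amino acid synthesis and tRNA charging were followed here through 34 genes, chosen by symbol: 20 cytosolic aminoacyl-tRNA synthetases and 14 enzymes that make or convert amino acids and one-carbon units. Of these, 32 had at least 1 named probe on the array, 53 probes in all of 25697. The annotation used here named no probe for Dars or Pycr1, and it wrote Mars as Mars1. After a detection filter, 31 of the 34 could be measured, among 9010 measured genes: 19 synthetases and 12 enzymes. The single probe of Psph, the phosphatase that ends serine synthesis, was detected on none of the 6 arrays.

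The cells were primary vascular smooth muscle cells of C57BL/6J mice aged 8 weeks. All 3 groups were infected with a lentivirus, selected with puromycin for 2 days and harvested after 5 days. The mir128 group received a virus that expressed the microRNA miR-128, and the groups shScr1 and shScr2 received scrambled control sequences under otherwise identical labels. Each group had 2 biological replicates, A and B, and the labels give neither the promoter of the vector nor the number of mice. The comparison asks how amino acid supply and tRNA charging genes stood in cells that overexpressed miR-128.

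Aminoacyl-tRNA synthetases join each amino acid to its tRNA, the step that fixes which amino acid a codon receives. Several of them sit together in the multisynthetase complex, while others work free or bound to elongation factors. Serine synthesis branches off glycolysis and feeds glycine and the folate-bound one-carbon pool, which growing cells draw on for nucleotides. When amino acids run short or the endoplasmic reticulum is stressed, the transcription factor ATF4 is translated and switches on many of these genes.

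The sequences below show the expressed microRNA and, for the members, a motif that bears on this known regulation. They were taken from RefSeq tables with build GRCm38.p6. The labels do not name the arm of miR-128, and the 3′ arm is shown, which is encoded at chr1:128202404-128202424 on the plus strand and at chr9:112118644-112118664 on the minus strand. Capitals mark the seed, bases 2 to 8, which pairs with targets.
miR-128-3p: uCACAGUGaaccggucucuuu

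Promoter windows, from 250 bases before to 50 after the start, were listed for 26 of the 34 genes, as 28 promoters. The letters TGATGNAA, the core of the element bound by ATF4 with C/EBP proteins, were searched on both strands. They were found in 8 of the 28 member promoters, or 28.6%, against 1304 of 32851 promoters in the table, or 3.97%. The genes were Aars, Asns, Gars, Got1, Iars, Pycr1, Tars and Yars. Windows of 6 of the 7 measured genes follow on the gene's own strand, with the motif or its reverse complement in capitals. They lie at chr6:7693215-7693242 on the minus strand (Asns), chr6:55037961-55037988 on the plus strand (Gars), chr19:43524690-43524717 on the minus strand (Got1), chr13:49682127-49682154 on the plus strand (Iars), chr15:11399656-11399683 on the minus strand (Tars) and chr4:129189896-129189923 on the plus strand (Yars).
Asns: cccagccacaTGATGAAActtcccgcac
Gars: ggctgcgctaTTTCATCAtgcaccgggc
Got1: attgcattggTTGCATCAtacaagcctc
Iars: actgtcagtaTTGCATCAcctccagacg
Tars: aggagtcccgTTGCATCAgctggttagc
Yars: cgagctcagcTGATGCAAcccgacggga
The E-box letters CACGTG were found in 5 of the 28 member promoters (Aars, Aldh18a1, Farsb, Iars and Tars), or 17.9%, against 7.15% of all promoters. A match describes the letters and is not evidence of binding.

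Intensities were background-corrected and quantile-normalised on a log2 scale, so a difference of 1 is a doubling. A gene was read from its brightest probe, and each difference was tested with limma over all 9010 genes, with Benjamini-Hochberg adjustment and a threshold of 0.05. Errors of differences are standard errors from that fit, with 2 arrays in each group. On a probe-wise array scale, the level of a gene may be set against itself across arrays but not against another gene.

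Against the mean of both scrambled groups, 5 of the 12 measured enzymes were lower with miR-128 (Phgdh, Psat1, Shmt1, Shmt2 and Bcat1), 0 were higher and 7 did not pass the test. Of the 19 synthetases 1 was lower (Vars) and 1 higher (Wars). At an unadjusted p under 0.05 in limma, 2 enzymes were higher, Gpt2 and Mthfd2. Against shScr1 alone 4 enzymes were lower and 0 higher, and at an unadjusted p under 0.05 in limma 6 were lower and 0 higher. Against shScr2 alone 2 were lower and 1 higher. The 7 called members are 22.6% of the 31, against 29.2% of all genes tested. By direction, 6 of 31 members, 19.4%, were lower, beside 13.6% of all genes, and 1, 3.23%, was higher, beside 15.6%. The median log2 change was -0.25 over the enzymes, 0.01 over the synthetases and 0.00 over all genes. The share of members called in either direction was thus no larger than the background.

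**Figure D1:**
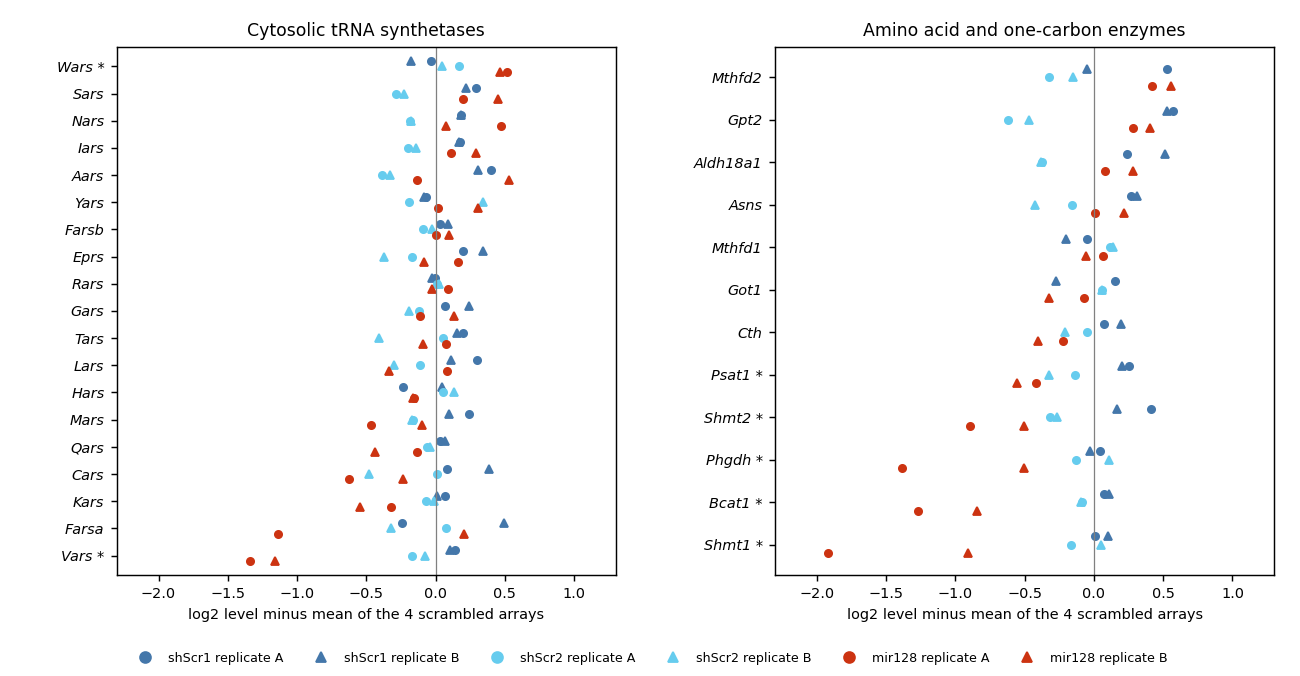
Each of the 31 measured members on each of the 6 arrays, as its log2 level minus the mean of the 4 scrambled arrays; the left panel holds synthetases, the right panel enzymes, and an asterisk marks the 7 members past the threshold. The red mir128 symbols of Vars, Shmt1, Bcat1 and Phgdh lie left of all blue ones, and the dark blue shScr1 symbols lie right of the light blue shScr2 symbols for most genes.

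All 4 measured serine and glycine enzymes, Phgdh, Psat1, Shmt1 and Shmt2, were called lower with miR-128 against the mean of both scrambled groups. This subgroup was formed after the values were seen, and 13.6% of all genes were called lower. Against shScr1 alone 3 of the 4 were called lower, beside 10.7% of all genes, and against shScr2 alone 1, beside 10.1%. Phgdh makes the first committed step of serine synthesis from a glycolytic intermediate. Its log2 level was 10.06 and 9.99 in shScr1, 9.89 and 10.13 in shScr2, and 8.64 and 9.51 in mir128 (replicates A and B in this order here and below). Both mir128 arrays lay below all 4 scrambled arrays, with replicate A far below replicate B. The log2 change was -0.94 ± 0.25 (0.520 times the scrambled level, adjusted p = 0.0345). Against each scrambled group alone it was -0.95 and -0.93, with adjusted p of 0.0604 and 0.0650. Without replicate A of mir128 the change was -0.50. The adjusted p rose to between 0.0646 and 0.0991 when that array or any 1 of the 4 scrambled arrays was left out.

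Psat1, the aminotransferase of the following step, stood at 12.10 and 12.05 in shScr1, 11.71 and 11.52 in shScr2, and 11.43 and 11.29 in mir128. The groups did not overlap, but the lowest scrambled array was close to the higher mir128 array. The log2 change was -0.49 ± 0.14 (0.714 times, adjusted p = 0.0430), made up of -0.72 against shScr1 (adjusted p = 0.0249) and -0.26 against shScr2 (adjusted p = 0.302). The call was lost with the scrambled groups pooled (limma adjusted p = 0.117) and with arrays scaled to a common median (0.203). Without any 1 scrambled array or without mir128 replicate B, the adjusted p lay between 0.0743 and 0.138.

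Shmt1 and Shmt2 are the cytosolic and mitochondrial enzymes that turn serine into glycine and load a one-carbon unit onto folate. The log2 level of Shmt1 was 7.33 and 7.42 in shScr1, 7.15 and 7.37 in shScr2, and 5.40 and 6.41 in mir128. Both mir128 arrays lay below all scrambled arrays. Its log2 change was -1.41 ± 0.28 (0.376 times, adjusted p = 0.0134). It was -1.47 against shScr1 (adjusted p = 0.0235) and -1.36 against shScr2 (adjusted p = 0.0301). The first adjusted p was 0.114 or 0.132 without shScr1 replicate A or B. The second lay between 0.0689 and 0.149 without any 1 scrambled array, and was 0.0585 without a detection filter. The size depended on the mir128 array kept: it was -0.91 without replicate A and -1.92 without replicate B, and the adjusted p was 0.0507 without shScr1 replicate B. Its raw intensities were low, from 169 to 249. Without background correction the change was -0.69, and with the authors' log2 values it was -0.30, both past the threshold.

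Shmt2 stood at 10.42 and 10.17 in shScr1, 9.69 and 9.75 in shScr2, and 9.11 and 9.51 in mir128. The groups were stepped, with shScr1 highest and mir128 lowest. The log2 change was -0.70 ± 0.17 (0.616 times, adjusted p = 0.0248). It was -0.99 against shScr1 (adjusted p = 0.0172) and -0.41 against shScr2 (adjusted p = 0.180). A second, dimmer probe of Shmt2 gave -1.19 (adjusted p over probes = 0.0582). The call of Shmt2 was lost with the scrambled groups pooled (limma adjusted p = 0.0715) and with arrays scaled to a common median (0.0895). The adjusted p lay between 0.0615 and 0.0897 without any 1 scrambled array or without mir128 replicate A.

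The 2 measured members that carry the one-carbon unit further did not pass the test. Mthfd1, the trifunctional cytosolic enzyme, had a log2 change of 0.00 ± 0.14 (adjusted p = 0.991), and its 95% interval ran from -0.32 to 0.33. Mthfd2, its mitochondrial counterpart and a known ATF4 target, had a value of 0.49 ± 0.20 (adjusted p = 0.109), which was the largest positive value among the enzymes. Mthfd2 stood at 9.61 and 9.04 in shScr1, 8.76 and 8.94 in shScr2, and 9.50 and 9.64 in mir128, so that shScr1 replicate A reached the mir128 arrays.

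Among the transaminases, Bcat1, the cytosolic enzyme that removes the amino group of leucine, isoleucine and valine, fell in every comparison with a scrambled group. Its log2 level was 10.999 and 11.03 in shScr1, 10.84 in both shScr2 replicates, and 9.66 and 10.08 in mir128. The scrambled arrays lay close together and well above both mir128 arrays. The log2 change was -1.06 ± 0.16 (0.480 times, adjusted p = 0.00601). Against shScr1 it was -1.15 (adjusted p = 0.00946) and against shScr2 -0.97 (adjusted p = 0.0162). With each array left out in turn, these single-group changes ran from -1.36 to -0.94 and from -1.18 to -0.76. Bcat1 could lose these single-group calls without an array of the scrambled group compared. All 3 of its probes passed the test over probes, with changes of -1.06, -1.02 and -0.84.

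Gpt2, the mitochondrial alanine aminotransferase, gave different values against the 2 controls. Its log2 level was 8.51 and 8.47 in shScr1, 7.33 and 7.47 in shScr2, and 8.23 and 8.35 in mir128. The mir128 arrays lay between the scrambled groups, nearer to shScr1. Gpt2 was higher than in shScr2 by 0.89 ± 0.16 (adjusted p = 0.0122) and -0.20 ± 0.16 against shScr1 (adjusted p = 0.390). Without shScr2 replicate A or B the first adjusted p was 0.0997 or 0.0734. Against both groups it was 0.34 ± 0.14 (adjusted p = 0.106).

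The other enzymes did not pass the test. Asns, which makes asparagine and is a classic ATF4 target, had a log2 change of 0.11 ± 0.15 with a 95% interval from -0.25 to 0.47. Aldh18a1, which starts proline synthesis, had 0.18 ± 0.15, and Got1, the cytosolic aspartate aminotransferase, had -0.20 ± 0.17. Cth, which forms cysteine from cystathionine, had -0.31 ± 0.14 (adjusted p = 0.150). It was dim, detected on 5 of 6 arrays, though both mir128 arrays lay below all scrambled arrays.

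**Figure D2:**
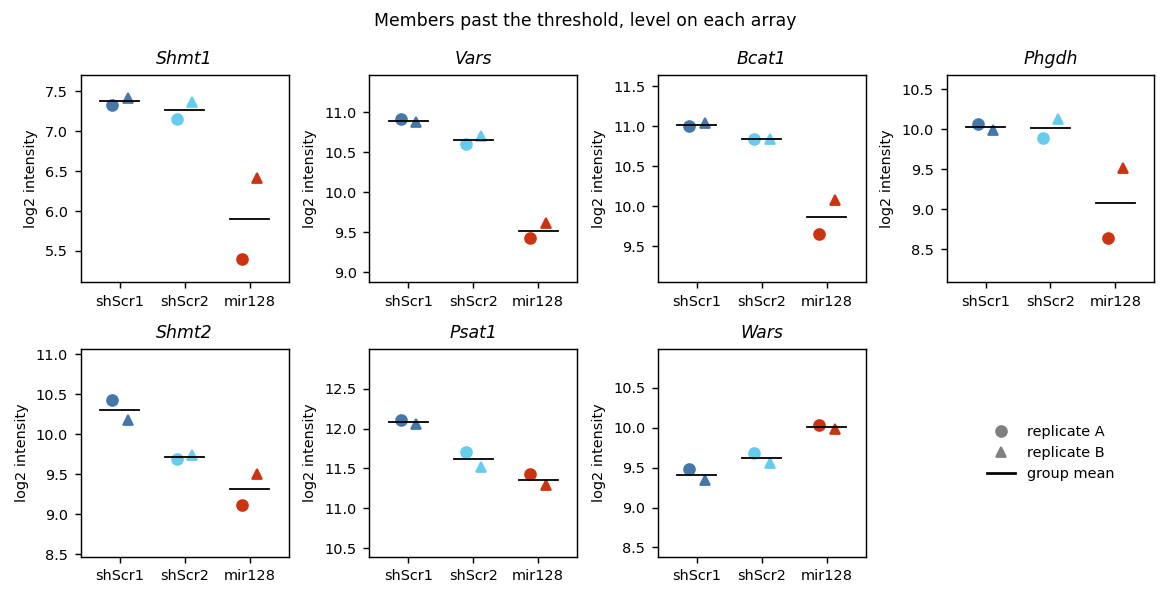
Log2 intensity of the 7 members past the threshold on each array, by group; circles are replicate A, triangles replicate B and bars group means, and all panels span the same number of log2 units. The mir128 replicates differ most for Phgdh and Shmt1, and shScr2 lies between shScr1 and mir128 for Psat1 and Shmt2.

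Vars, which charges valine tRNA, had the smallest adjusted p among the members. Its log2 level was 10.91 and 10.87 in shScr1, 10.60 and 10.70 in shScr2, and 9.43 and 9.61 in mir128. All 4 scrambled arrays lay about a log2 unit above both mir128 arrays. The log2 change was -1.25 ± 0.14 (0.420 times, adjusted p = 0.00238). It was -1.37 against shScr1 (adjusted p = 0.00375) and -1.13 against shScr2 (adjusted p = 0.00683). With each array left out in turn, these changes ran from -1.46 to -1.28 and from -1.22 to -1.04. Vars could lose these calls without an array of the scrambled group compared. Of its other probes, 1 gave -1.02 (adjusted p over probes = 0.0134) and 1, a dim probe, gave -0.39 (adjusted p over probes = 0.141).

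Wars, which charges tryptophan tRNA and is known to be induced by interferon, was the only member called higher against both groups. Its log2 level was 9.48 and 9.34 in shScr1, 9.69 and 9.56 in shScr2, and 10.03 and 9.98 in mir128. The mir128 arrays lay above all scrambled arrays. The log2 change was 0.49 ± 0.14 (1.40 times, adjusted p = 0.0390), with 0.59 against shScr1 (adjusted p = 0.0391) and 0.38 against shScr2 (adjusted p = 0.130). Its probes disagreed: the other 3 gave 0.08, -0.01 and -0.21, none past the threshold. The mean of the 4 probes gave 0.09 (adjusted p = 0.727), and the adjusted p lay between 0.0661 and 0.134 without any 1 scrambled array or without mir128 replicate A.

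The synthetases of the multisynthetase complex did not pass the test in any comparison. Of its 7 measured synthetases 0 were called by limma against both scrambled groups, and 1, Kars, had an unadjusted p under 0.05. Their log2 changes ran from -0.43 to 0.20 with a median of -0.13. Kars, the lysine enzyme, stood at 10.81 and 10.76 in shScr1, 10.68 and 10.73 in shScr2, and 10.43 and 10.20 in mir128. The mir128 arrays were the lowest of the 6, and the log2 change was -0.43 ± 0.14 (adjusted p = 0.0607). Kars passed the threshold in 6 of 15 alternative treatments of the data. Qars, for glutamine, also had both mir128 arrays lowest, with -0.29 ± 0.15 (adjusted p = 0.192). Mars, for methionine, had -0.28 ± 0.16 (adjusted p = 0.229) by its brightest probe and -0.54 (adjusted p over probes = 0.0396) by the other.

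The remaining complex members were Lars, for leucine, with a log2 change of -0.13 ± 0.17, and Rars, for arginine, with 0.03 ± 0.13. Iars, for isoleucine, had 0.20 ± 0.13, and Eprs, which charges both glutamate and proline tRNA, had 0.04 ± 0.15. Rars was the steadiest, between 10.84 and 10.95 on all 6 arrays. The 3 scaffold proteins of the complex did not pass either, with 1 at an unadjusted p under 0.05: Aimp2 had -0.36 ± 0.13 (adjusted p = 0.0892), Aimp1 0.04 ± 0.16 and Eef1e1 0.03 ± 0.20.

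Outside the complex, Sars, the serine enzyme, was higher than in shScr2. Its log2 level was 9.77 and 9.70 in shScr1, 9.19 and 9.25 in shScr2, and 9.68 and 9.93 in mir128. The mir128 arrays overlapped shScr1 and lay above shScr2. The difference was 0.58 ± 0.16 against shScr2 (adjusted p = 0.0488) and 0.07 ± 0.16 against shScr1 (adjusted p = 0.798). With the replicate letters as a block the first adjusted p was 0.0587, and it lay between 0.0591 and 0.216 without any 1 scrambled array or without mir128 replicate B. A second, dimmer probe of Sars gave 0.80 against both groups (adjusted p over probes = 0.0255), where the brightest gave 0.33 (adjusted p over genes = 0.136).

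The other free synthetases were not called. Gars, for glycine, had a log2 change of 0.01 ± 0.15, Tars, for threonine, -0.01 ± 0.17, and Farsb, a subunit of the phenylalanine enzyme, 0.05 ± 0.13. Farsa, its partner subunit, had -0.47 ± 0.40, and its mir128 replicates stood far apart at 5.05 and 6.38. Aars, for alanine, had 0.19 ± 0.21, Nars, for asparagine, 0.27 ± 0.16, and Hars, for histidine, -0.16 ± 0.15. Cars, for cysteine, and Yars, for tyrosine, were dim, detected on 4 and 2 of 6 arrays, with values of -0.43 ± 0.21 and 0.16 ± 0.19.

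A value that missed the threshold does not show an equal level, and the intervals say how far these data reach. Of the 24 measured members that were not called, 23 had a 95% interval within 1 log2 unit of 0, and 7 within 0.5. The exception was Farsa, from -1.42 to 0.49. Data were also simulated, with changes planted in 50 genes for each size. There the fit recovered 0% of changes of 0.5 log2 units, 24% of 1, 58% of 1.5 and 88% of 2. Far more genes changed in the real comparison, with 2630 of 9010 called, so its Benjamini-Hochberg cut was less strict. The simulated shares therefore do not carry over to it: Wars passed at 0.49 and Psat1 at -0.49.

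The arrays were also counted without a fit. Both mir128 arrays lay below all 4 scrambled arrays for 9 members, 29.0%, beside 22.8% of all genes. They lay above all 4 for 1 member, 3.23%, beside 24.3% of all genes. The 9 were 6 of 12 enzymes and 3 of 19 synthetases. Before normalisation, among the authors' raw intensities, Vars read 1149 and 831 with miR-128 and at least 1466 in the scrambled groups, and Bcat1 read 1332 and 1095 against at least 1611. Psat1 and Shmt2 overlapped on the raw scale, where mir128 replicate A stood out by its brightness (upper quartile 373, against 201 to 252 on the other arrays).

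Over probes, 48 of the 53 member probes passed the filter and 11 were called, 9 lower and 2 higher, beside 26.4% of all 12452 probes called. In 12 genes several probes could be tested, and in 5 of these the probes differed in sign.

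The comparisons with each scrambled group by itself share the mir128 arrays. Against shScr1, 5 members, 16.1%, were lower (Vars, Psat1, Shmt1, Shmt2 and Bcat1), beside 10.7% of all genes. In that comparison 1 member, 3.23%, was higher (Wars), beside 12.3%. Against shScr2, 3 members, 9.68%, were lower (Vars, Shmt1 and Bcat1), beside 10.1%, and 2, 6.45%, were higher (Sars and Gpt2), beside 12%. The median log2 change of the synthetases was -0.16 against shScr1 and 0.09 against shScr2, and that of the enzymes was -0.32 and -0.22.

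**Figure D3:**
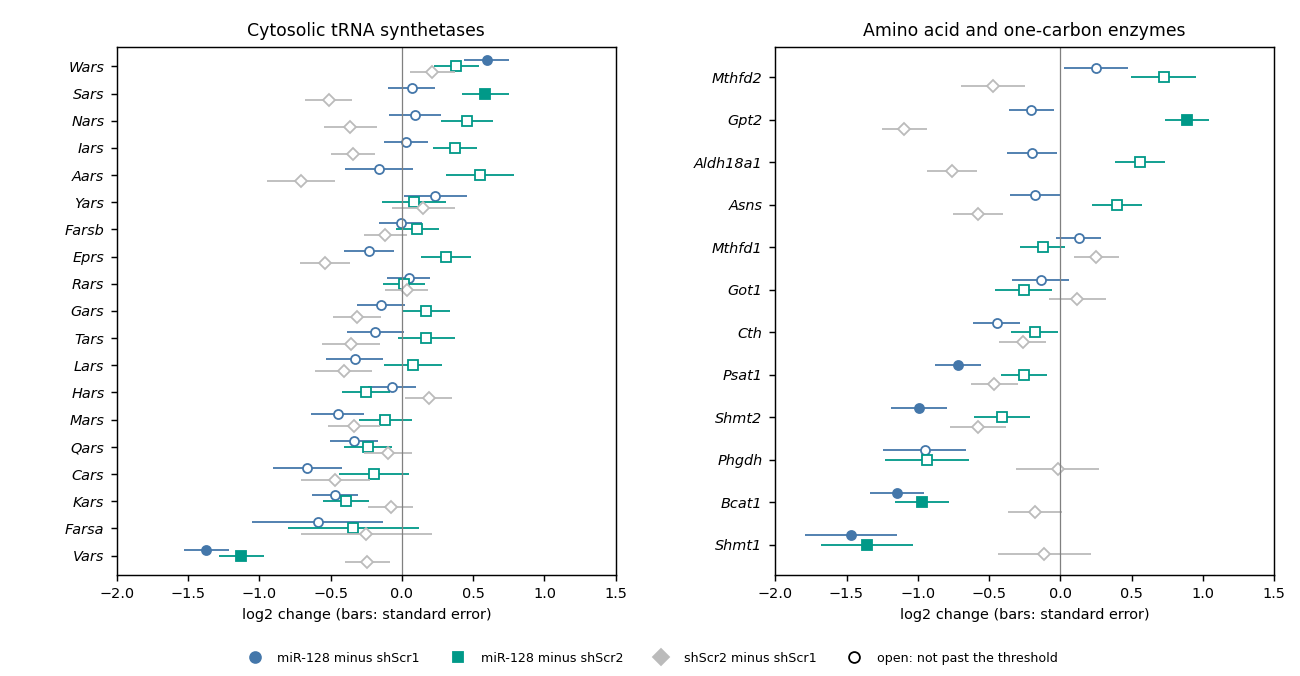
Log2 change of each measured member with miR-128 against shScr1 (circles), against shScr2 (squares), and of shScr2 against shScr1 (diamonds), with bars of 1 standard error; filled symbols are past the threshold and the grey diamonds are all open. The squares lie right of the circles for most members, furthest for Gpt2.

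The scrambled groups themselves stood apart in these genes more often than genes at large, although no single member was called. Between shScr2 and shScr1, 0 of 31 members passed limma's threshold, beside 0.0888% of all genes, and 8 had an unadjusted p under 0.05, all lower in shScr2, beside 11.5% of all genes. For 25 of 31 members the mean was lower in shScr2, against 48.5% of all genes. Both shScr1 arrays lay above both shScr2 arrays for 22 of 31, against 25.6% of all genes. The reverse held for 4 of 31, and its share over all genes was not counted. The median difference was -0.31 over the members and 0.01 over all genes. The members share arrays and were measured together, so these counts describe 4 arrays and were not tested as a list.

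The widest gap between the controls was that of Gpt2, -1.09 (adjusted p = 0.0824). Aldh18a1 followed with -0.76, Aars with -0.71, Shmt2 and Asns with -0.58, and Eprs with -0.54. For 10 of the 31 members the mir128 mean fell between the means of the scrambled groups, a count not made over all genes. Over the synthetases, the median deviation from the scrambled mean was 0.08 and 0.11 on the shScr1 arrays, -0.11 and -0.17 on the shScr2 arrays, and 0.00 and -0.03 on the mir128 arrays. Over the enzymes it was 0.20 and 0.14, -0.15 and -0.18, and -0.14 and -0.37. The synthetases as a list thus lay with miR-128 between the controls, and the enzymes lay about level with shScr2 or below it.

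Genes around the members gave the setting, with lists set by function. Of the regulators and stress targets of the ATF4 axis, 10 of 18 measured were higher with miR-128, 2 were lower (Stc2 and Cebpb), and the median log2 change was 1.06. Over all genes, 15.6% were called higher and 13.6% lower. These shares were 12.3% and 10.7% against shScr1, and 12% and 10.1% against shScr2. The median of this list was 0.46 against shScr1, with 8 higher and 2 lower. It was 1.39 against shScr2, with 10 higher and 0 lower, or 11 and 0 at an unadjusted p under 0.05 in limma. Stc2 passed the threshold in 9 and Cebpb in 7 of 15 alternative treatments of the data. Nupr1, a stress-induced chromatin factor, rose by 2.17 ± 0.15 (adjusted p = 0.000643). Ddit3, the factor CHOP, rose by 1.64 ± 0.18 (adjusted p = 0.00239), Ppp1r15a, which directs the phosphatase that restores initiation, by 1.44 ± 0.15 (adjusted p = 0.00206), and Vldlr, a lipoprotein receptor, by 1.15 ± 0.13 (adjusted p = 0.00256). Atf4 mRNA had -0.09 ± 0.17 (adjusted p = 0.734), and with the replicate block the adjusted p of Cebpb was 0.0524. Between the controls this list had a median of -0.62 in shScr2 against shScr1, with 0 genes called by limma and 12 at an unadjusted p under 0.05.

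Of the 7 measured members whose promoter window held TGATGNAA, 0 passed the threshold and 0 had an unadjusted p under 0.05 against both scrambled groups, and their log2 changes ran from -0.20 to 0.20. Of the 16 measured members whose window lacked those letters 5 were called, or 31.25%, close to the 29.2% of all genes called. All 5 were lower, beside 13.6% of all genes. The medians of the 7 with the motif were -0.15 against shScr1 and 0.17 against shScr2. None of the windows of Psat1, Phgdh, Shmt1, Shmt2 and Bcat1 held those letters, and Vars and Wars had no window in the table. The window of Mthfd2, named above as a known ATF4 target, lacked them too. The split by letters therefore does not separate ATF4 targets from other genes.

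**Figure D4:**
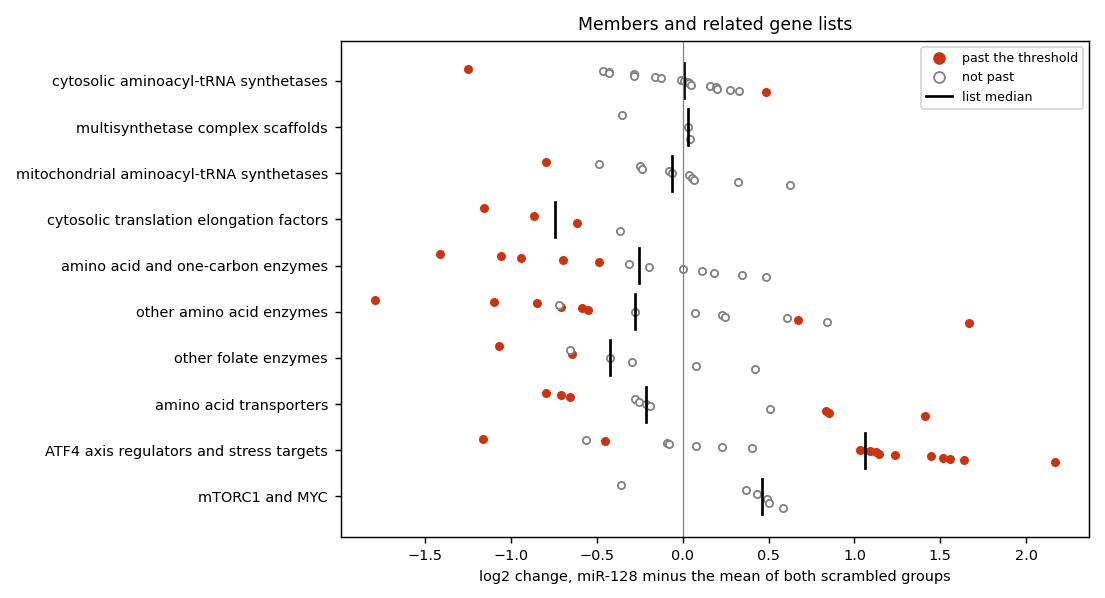
Log2 change with miR-128 against the mean of both scrambled groups for each measured gene of the member lists and of related lists; red points are past the threshold, open points are not, and black bars are list medians. The ATF4 list lies to the right, with a median of 1.06, and the elongation factors and several enzyme lists lie to the left.

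Among other enzymes of amino acid metabolism, 6 of 15 measured were lower and 2 higher, with a median of -0.28. Over all genes 13.6% were lower and 15.6% higher. Ahcy, which clears S-adenosylhomocysteine after methyl transfer, fell by 1.79 ± 0.15 on the log2 scale (adjusted p = 0.000995). Aldh4a1, which completes proline breakdown to glutamate, rose by 1.67 ± 0.17 (adjusted p = 0.00186). Prodh, which starts that breakdown, was detected on all 4 scrambled arrays and on neither mir128 array. Under the main processing it was at least 1.92-fold lower (limma adjusted p = 0.00323). Under the alternatives its log2 change was as small as -0.11, and it lost the call with the authors' log2 values. Pycrl, a proline-forming reductase, fell by 0.85 ± 0.14 (adjusted p = 0.00730). Of 7 other folate enzymes 2 were lower and 0 higher, and at an unadjusted p under 0.05 in limma 4 were lower and 0 higher. The 2 were the thymidylate synthase Tyms with -1.07 ± 0.25 (adjusted p = 0.0212) and the purine enzyme Atic with -0.64 ± 0.14 (adjusted p = 0.0160). Tyms passed in 11 and Atic in 10 of 15 alternatives.

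Of 11 amino acid transporters, 3 were higher and 3 lower, beside 15.6% and 13.6% of all genes. Against shScr1 alone 0 were higher, with 1 at an unadjusted p under 0.05 in limma, and 2 lower, and against shScr2 alone 3 were higher and 1 lower. Slc7a11, the cystine importer, had 1.41 ± 0.34 (adjusted p = 0.0245), and the glycine transporter Slc6a9 had 0.85 ± 0.13 (adjusted p = 0.00635). The lysosomal transporter Slc36a1 had -0.66 ± 0.17 (adjusted p = 0.0330). Slc1a5, which imports glutamine, was detected on both shScr1 arrays, 1 shScr2 array and neither mir128 array. It was called lower under the main processing (limma adjusted p = 0.0310). With the mir128 arrays set no lower than their lowest detected signal, it was 1.44-fold lower. The scrambled mean held 1 undetected array, so this value is not a strict minimum. Under the alternatives the log2 change of Slc1a5 was as small as -0.085. These calls depended on the processing: Slc36a1 passed in 6 of 15 alternatives, with values as small as -0.065, Slc1a5 in 6 of 14, Slc7a11 in 10 of 14 and Slc6a9 in 14 of 15.

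Of the mitochondrial synthetases, 1 of 11 measured was lower, beside 13.6% of all genes, and the median was -0.06. The gene was Mars2, with -0.80 ± 0.20 (adjusted p = 0.0269). Mars2 passed in 9 of 15 alternatives. Of the cytosolic elongation factors, 3 of 4 measured were lower, beside 13.6% of all genes, and the median was -0.74. Eef1b2 fell by 1.16 ± 0.16 (adjusted p = 0.00404) and Eef1d by 0.62 ± 0.14 (adjusted p = 0.0215). Both belong to the exchange complex to which the valine enzyme Vars is known to bind. Eef2, which moves the ribosome along, fell by 0.87 ± 0.165 (adjusted p = 0.0120). Eef1b2 passed in 15, Eef2 in 13 and Eef1d in 10 of 15 alternatives. Of 6 measured mTORC1 and MYC genes 0 were called and 4 had an unadjusted p under 0.05, with Mtor at 0.49 ± 0.16 (adjusted p = 0.0617) and Myc at -0.36 ± 0.17 (adjusted p = 0.162).

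Markers of cell state moved with the same groups, where 13.6% of all genes were called lower and 15.6% higher. Over 8 measured cell cycle markers, 7 of them lower, the summed level ran from 14811 to 16776 on the scrambled arrays and was 4398 and 8413 on the mir128 arrays. Over 6 measured smooth muscle markers, 5 of them higher, it ran from 11782 to 12816 in shScr1, 21449 to 21604 in shScr2 and 24705 to 31929 in mir128. Such a sum is weighted to the brightest probes. The median log2 change of the 6 was 1.48 against shScr1 and 1.43 against shScr2. Between the controls it was 0.27 in shScr2 against shScr1. Of the defining smooth muscle markers, Cnn1 was detected on no array, Myocd failed the filter, and Myh11 was detected on the mir128 arrays only. Over 4 of 6 fibroblast markers the summed level ran from 1494 to 1616 in shScr1, 460.2 to 479.7 in shScr2 and 1158 to 1562 in mir128. Of these 4, 1 was higher with miR-128 against both scrambled groups, Dcn with 1.04 (adjusted p = 0.00630), and 1 lower, Pdgfra with -0.97 (adjusted p = 0.0153). Against shScr1 alone 0 of the 4 were higher and 1 lower, and against shScr2 alone 1 was higher and 0 lower. With the scrambled groups pooled, Dcn lost its call (limma adjusted p = 0.352). Dcn was also called between the controls, with -2.38 in shScr2 against shScr1 (adjusted p = 0.0143). The part of these changes in the members' values was not tested.

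Other cell types left few traces. Of the leukocyte markers only Lyz2 passed the filter, at 23.5 to 33.0 on the scrambled arrays and 57.1 and 101 with miR-128. It was called higher, with a log2 change of 1.36 (limma adjusted p = 0.0104). Ptprc, Adgre1 and Cd52 were detected on no array, and Cd68 and Csf1r had no named probe. Of 6 endothelial markers, Kdr and Tek passed, with a summed level of 67.3 to 92.6 on the scrambled arrays and 54.0 and 71.1 with miR-128, and Cdh5 was detected on no array. None of the 4 adipocyte markers was detected on any array. In bulk RNA, fewer cells of a kind and less RNA per cell cannot be told apart.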

How the data were processed

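RNA of 6 samples, 2 in each of 3 groups, was hybridised to Illumina bead arrays. The table deposited by the authors holds raw linear intensities and detection p-values for 25697 probes, and a second deposited table holds log2 values whose transformation is not given in the sources used here. The submitters' processing notes name GenomeStudio 2011.1, limma and lumi. From 11589 to 13277 probes were detected per array, and 2 arrays per group limit the precision.

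Probes were named through the platform annotation: 23978 had 1 gene symbol, 1719 none and 0 several. Background correction, from the detection p-values, and quantile normalisation used neqc with an offset of 16 (limma 3.58.1 under R 4.3.3). Genes needed a detection p-value under 0.05 on at least 2 arrays. A model with 3 group means was fitted (lmFit, eBayes), two-sided. The members and lists were chosen with earlier results of these data known, and no list was tested. All members are accounted for. Of each related list, up to 4 genes with the smallest adjusted p past the threshold are named, with Atf4, Myc and Mtor. The scaffold proteins, Stc2, Cebpb and the subgroups of members were chosen after their values were seen.

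Whether the replicate letters pair the arrays was not settled. Deviations from group means of arrays with the same letter correlated only weakly, at 0.119, 0.128 and 0.150 for the 3 pairs of groups. The main fit did not use the letters, and a replicate block was tried as an alternative. The fit was tested on simulated data. Bounds for probes undetected in a group used each array's lowest detected signal or the probe's own value, whichever was higher. The alternatives tried were scaling to a common median, no background correction, the authors' log2 values, filters at none and 6 arrays, means over probes, trend and robust fits, pooled controls, a replicate block and each array left out. The promoter window of 1 measured gene with the motif is not reported here.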

Additional observations from a re-analysis of the deposited data

How the results depend on the processing

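Against 1 scrambled group alone, the calls of Vars and Bcat1 could be lost when an array of that group was left out. Against both groups, only Vars and Bcat1, of the 7 called members, passed the threshold under all 15 alternatives. Their changes ran from -1.34 to -0.89 and from -1.27 to -0.85. Shmt1 passed in 14, Phgdh in 9, Psat1 and Shmt2 in 8 and Wars in 7, and none of the 7 changed sign. Over all members, 462 alternative values gave 422 with the same call, 29 that lost it, 11 that gained it and 0 reversals of a call.

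Scaling to a common median moved the median of all genes to 0.19 and the split of calls from 1408 higher and 1222 lower to 1552 and 568. Under it the enzyme median was 0.00121 and the synthetase median 0.103, both below that shift. It left 3 enzymes lower, 0 synthetases higher (0 also against shScr1), 3 enzymes higher against shScr2, 1354 genes changed against shScr1 and 4 genes between the controls. Without background correction 2 synthetases were lower in each comparison, 3 synthetases and 3 enzymes were higher against shScr2, the enzyme median was -0.0911, and 29 genes, 1 a member, differed between the controls. With the authors' log2 values 2 synthetases were lower in each comparison, 3 synthetases and 2 enzymes were higher against shScr2, the enzyme median was -0.0296, and 19 genes differed between the controls. Without a detection filter 2 synthetases were lower and 1 enzyme was lower against shScr2. With detection on 6 arrays 2 synthetases were lower and 2 enzymes higher against shScr2. Means over probes gave a synthetase median of -0.0905 and 0 synthetases higher against shScr1. Trend and robust fits gave 2 synthetases lower, also against shScr1, 3 enzymes higher against shScr2, and 54 genes, 1 a member, between the controls. Pooled controls left 3 enzymes lower, with Psat1 and Shmt2 lost, and 0 synthetases higher. With the replicate block 0 synthetases were higher against shScr2, since Sars was lost, and 1 gene differed between the controls, where 8 had; the block changed no other call of a member. The causes were not tested.

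Leaving out each array in turn gave 1213 to 3451 genes changed against both groups, 244 to 3238 against shScr1, 341 to 3010 against shScr2, 0 to 228 between the controls and 1378 to 4507 probes. Synthetases lower were 1 to 3, 0 to 4 and 0 to 1 in the 3 comparisons, and higher 0 to 2, 0 to 1 and 0 to 2. Enzymes lower were 1 to 4, 0 to 5 and 0 to 4, and higher against shScr2 0 to 2. Members between the controls were 0 to 1. The median was -0.37 to -0.14 over the enzymes and -0.0256 to 0.0270 over the synthetases. A lone array in a group was assumed to vary like the other groups.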
